A study of Mus musculus with 2 samples.

Results

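The natriuretic peptide system of the mouse heart was examined after myocardial infarction (MI). Its members were taken by gene symbol as 8 of the 18193 genes that the array names: the peptide genes Nppa, Nppb and Nppc, the convertase genes Corin and Furin, and the receptor genes Npr1, Npr2 and Npr3. They were covered by 10 of the 34945 probe sets with 1 gene symbol, and the rule uses symbols and not measured values. The study compared whole hearts at day 3 after the left anterior descending coronary artery had been tied off for good (infarct) with hearts at day 3 after the same surgery with the artery left untied (sham), in order to find genes induced in the infarcted heart. All mice were C57BL/6J males, 10 weeks old by the sample labels and 8 to 10 weeks old by the housing protocol, with no other treatment named. RNA of 3 hearts was mixed in each group and hybridised to 1 array, so that infarcted and remote muscle were not separated and mice could not be told apart. With 2 arrays and 1 per group, no test was possible, and every difference sets 1 infarct pool against 1 sham pool. Values are RMA values on the log2 scale, and differences are infarct minus sham, taken before rounding.

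Atrial natriuretic peptide and B-type natriuretic peptide are cardiac hormones that the heart muscle releases when it is stretched, and they promote the excretion of salt and water, relax vessels and restrain fibrosis. Both are made as pro-peptides: corin, a membrane-bound serine protease of cardiomyocytes, cuts the atrial form, and furin, a ubiquitous convertase, cuts the B-type and C-type forms. The receptors encoded by Npr1 and Npr2 are guanylyl cyclases that answer with cyclic GMP, whereas the receptor encoded by Npr3 lacks a cyclase and takes the peptides up for breakdown.

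Among the members, Nppb alone differed by at least 2-fold, and it was higher in the infarct pool. Nppa and Furin lay above 0 as well, although by less, while Corin, Npr2 and Npr3 lay below 0. Nppa lay below 0 when each array was centred on its housekeeping genes (housekeeping centring), and Corin was at -0.00 when each was centred on its hybridisation controls (spike-in centring). A gene was compared if its brightest probe set reached the median of at least 1 array (6.35 in the infarct pool and 6.36 in the sham pool). Of the 8 members, 6 met this rule, and Nppc and Npr1 were dimmer than the median in both pools. The 6 compared members held 1 gene at least 2-fold higher and 0 genes at least 2-fold lower. Over all 11961 genes compared, 446 (3.73%) were at least 2-fold higher and 151 (1.26%) at least 2-fold lower. The median difference of the 6 members was -0.02, beside 0.0 over all genes compared, and 3 of the 6 lay on each side of 0.

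**Figure D1:**
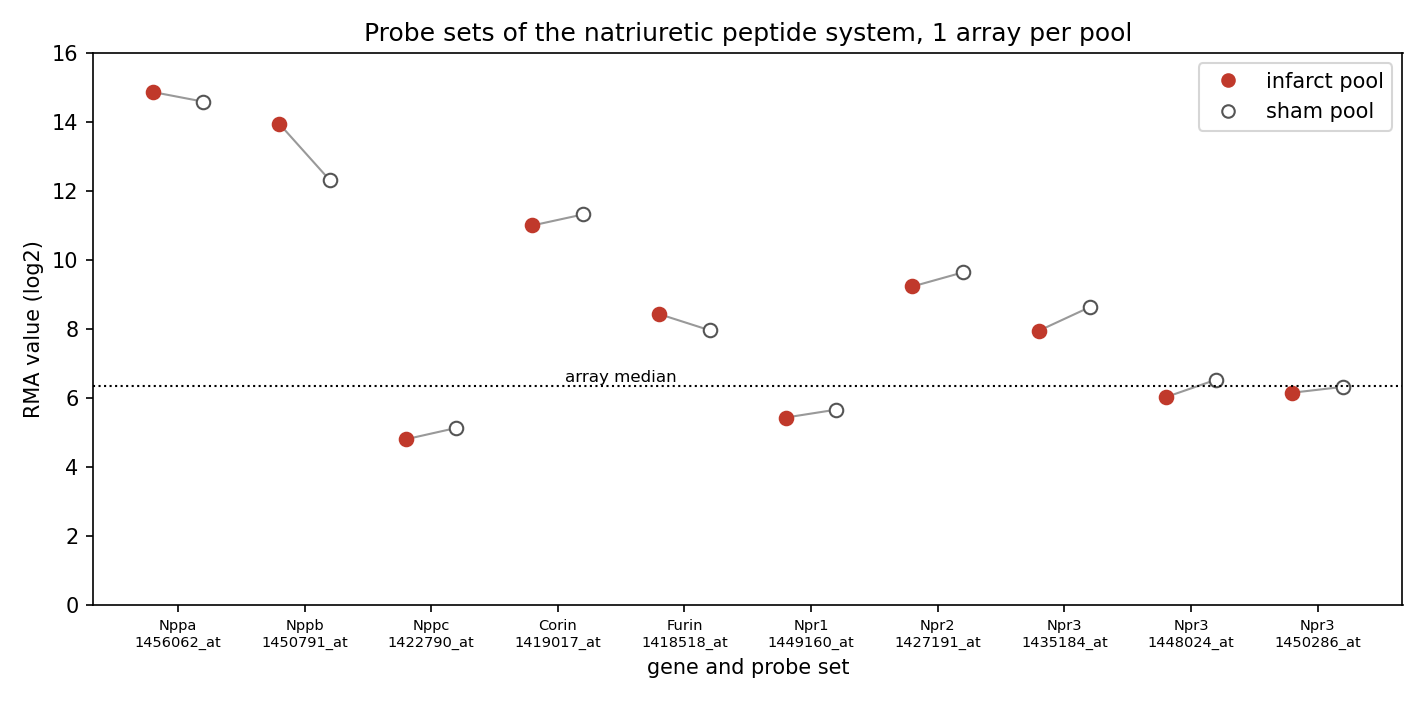
RMA values (log2) of the 10 probe sets of the natriuretic peptide system, 1 point per pool, with infarct filled in red and sham open, and the array median as a dotted line. Nppb had 13.95 in the infarct pool and 12.31 in the sham pool, Nppa lay near 15 in both pools, and both points of Nppc, Npr1 and the third probe set of Npr3 lay below the median.

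Nppb, which encodes B-type natriuretic peptide, had a value of 13.95 in the infarct pool and 12.31 in the sham pool. The difference of 1.64 corresponds to 3.12-fold. It ranked 118 from the top of 11961 genes, and it also passed a log2 difference of 1.4 (2.64-fold), the threshold of the study, as did 178 genes (1.49%). The gene has 1 probe set, of a type that matches a unique transcript, so no second probe set could be set beside it. Different probe sets of a gene disagreed with a pooled SD of 0.23 in their difference (5190 genes with at least 2 bright probe sets). The difference of Nppb was 7.22 times that SD, which covers the probes and not the mice. Its brightness set it apart from most genes past 2-fold. Just 171 genes were brighter on average over both pools, and 1 of these differed by 2-fold or more. Within 1 log2 unit of the mean value of Nppb lay 371 genes, Nppb included. Of these, 12 passed 2-fold upward in the infarct pool and 1 passed it downward. The next difference after Nppb was that of Anxa2 (1.28), named after its value was seen, and the differences of the others had an SD of 0.44.

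Nppa, which encodes atrial natriuretic peptide, was close to the top of the scale in both pools. Its value was 14.87 in the infarct pool and 14.59 in the sham pool, a difference of 0.27 (1.21-fold). It was the probe set of rank 2 from the brightest of 45101 in the infarct pool and of rank 11 in the sham pool. The highest value of any probe set was 14.89 in the infarct pool and 14.90 in the sham pool. Nppa thus lay 0.02 below the highest value of the infarct array and 0.30 below that of the sham array, and a larger difference had little room on this scale. Bright probe sets differed less in general: the 100 brightest had an SD of 0.24 in their difference, against 0.38 over all probe sets, and 0 of them differed by 2-fold. Another 36 probe sets had a mean no more than 0.5 below that of Nppa. Their differences ran from -0.33 to 0.28, and 1 of them exceeded Nppa. Of the 100 brightest, 11 exceeded Nppa, the highest at 0.7. Among all genes compared, 24.4% had a higher difference than Nppa. The difference of Nppb exceeded that of Nppa by 1.37, with the limit that Nppa was read at the end of the range.

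**Figure D2:**
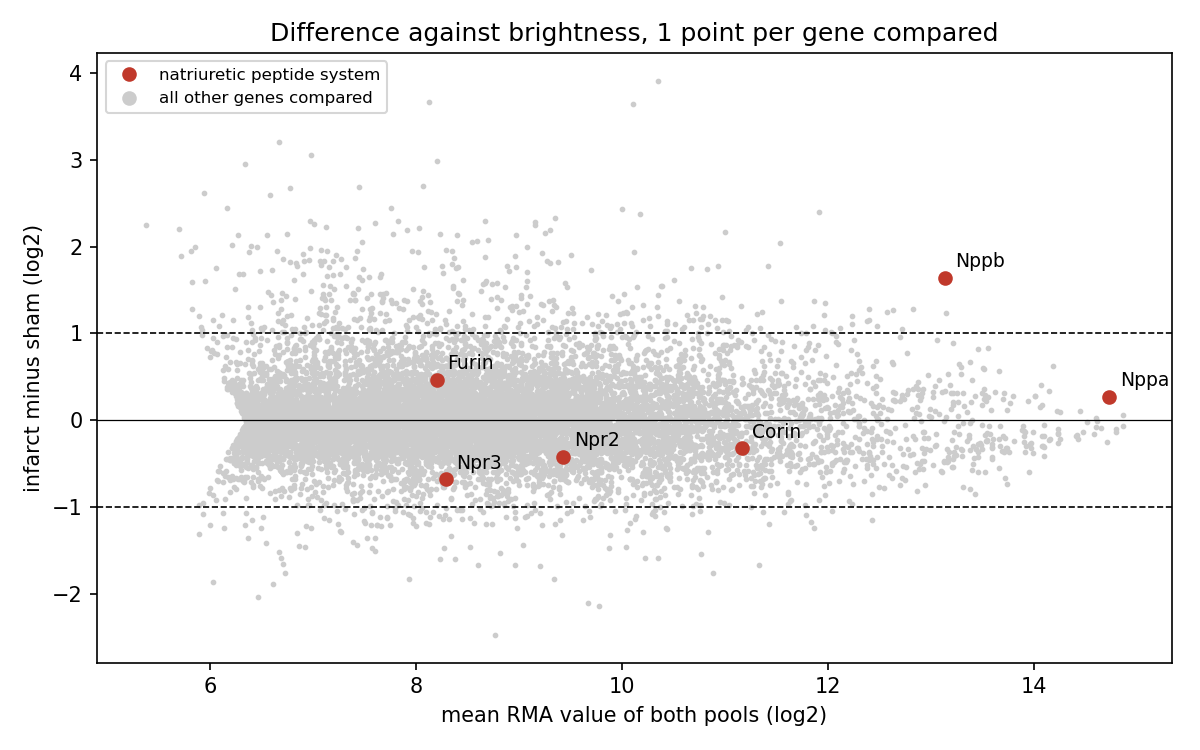
Log2 difference (infarct minus sham) against the mean RMA value (log2) of both pools for the 11961 genes compared, 1 point per gene, with the 6 compared members in red and dashed lines at 2-fold. Nppb (1.64) lay above the upper line among bright genes, and Nppa (0.27) lay at the bright end, where the differences of all genes narrowed.

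Most markers of the muscle that makes these peptides lay below 0 in the deposited values. All 7 markers of atrial cardiomyocytes were bright in both pools and lay below 0, from -0.92 to -0.01 with a median of -0.31, although 4 of them were above 0 under spike-in centring and 1 after median centring or quantile normalization. Stard10 (-0.92), Nr2f1 (-0.34) and Sln (-0.33) were the lowest. Their summed level, as log2 of the summed linear values, was 14.83 in the infarct pool and 15.04 in the sham pool. A further 8 markers were listed for ventricular cardiomyocytes, but most of them, such as Myh6, Tnnt2 and Ryr2, are expressed in atrial muscle too. Of these 8, 7 lay below 0 (3 under spike-in centring), with a median of -0.19. Their summed levels were 17.24 in the infarct pool and 17.37 in the sham pool. Ryr2 (-0.39), Irx4 (-0.38) and Tnni3 (-0.38) were the lowest of these. As with Nppa, 5 of the 8 (Myl2, Myl3, Myh6, Tnnt2 and Actc1, named after their values were seen) were read near the top of the scale, at 14.58 to 14.89, and their differences are limited in the same way. Dimmer probe sets reached lower values, at -0.67 for Myh6, -0.60 for Tnnt2 and -0.66 for Ryr2. No marker of either list was below the array median in a pool. In whole hearts, fewer cells of a type and less RNA per cell cannot be told apart. The part of the cell mixture in the values of Nppa and Nppb was not tested.

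Nppb and Nppa are neighbours on chromosome 4 with 0 annotated genes between them. The 250 bases upstream of their gene starts are shown because these genes encode the cardiac hormones on which the results turn. They come from RefSeq (GRCm38.p6), at chr4:147985650-147985899 for Nppb and chr4:148000472-148000721 for Nppa, both on the + strand. Capitals mark the letters GATAA (bound by GATA factors), GGAATG (the M-CAT element of TEAD factors), TNAAGTG (an NKE, bound by NKX2-5) and TATAAA (the TATA box), searched on both strands.
Nppb: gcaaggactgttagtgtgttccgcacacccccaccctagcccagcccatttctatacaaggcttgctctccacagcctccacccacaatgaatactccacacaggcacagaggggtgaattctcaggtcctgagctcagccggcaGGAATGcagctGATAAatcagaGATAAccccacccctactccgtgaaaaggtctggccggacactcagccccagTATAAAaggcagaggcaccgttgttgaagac
Nppa: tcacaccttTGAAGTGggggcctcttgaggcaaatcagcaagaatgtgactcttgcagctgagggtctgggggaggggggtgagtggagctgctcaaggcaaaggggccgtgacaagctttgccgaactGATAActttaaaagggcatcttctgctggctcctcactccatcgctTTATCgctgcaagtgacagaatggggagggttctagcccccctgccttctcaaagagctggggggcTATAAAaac
Each sequence held GATAA 2 times. In Nppb the matches lay at 94 to 90 and at 83 to 79 bases before the gene start, and in Nppa at 121 to 117 and, on the reverse strand, at 75 to 71. At least 2 such matches were found in 4.18% of 32536 upstream windows of the same length, and at least 1 in 22.5%. In the other 7 upstream windows of the members, GATAA had 0 matches. Nppb held GGAATG at 105 to 100 bases before its start (12.6% of all windows hold it), and Nppa held TNAAGTG at 241 to 235 (10.0%). A TATAAA lay at 31 to 26 bases before the start in Nppb and at 9 to 4 in Nppa, and 12.3% of windows hold one. All positions are counted from the RefSeq gene start, and whether transcription starts there in these hearts was not measured. A TATA box usually lies farther upstream of the start than the match in Nppa does, so the positions in Nppa may differ from those counted from the start in use. Neither TGANTCA (AP-1, 6.73% of windows) nor CCWWWWWWGG (the CArG box of serum response factor, with W for A or T, 1.48%) was found in the 9 windows of the 8 members. Only exact matches were searched for, so sites that differ from these letters, such as ctttaaaagg in Nppa, were not counted. None of the matches marked overlapped another. They describe letters, and the arrays did not measure binding.

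Nppc, which encodes C-type natriuretic peptide, a product mainly of endothelial cells, was dim. Its value was 4.80 in the infarct pool and 5.13 in the sham pool, 1.55 and 1.24 below the medians of the infarct and sham arrays. The difference was -0.33, and it was not counted because the signal was below the array median in both pools.

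The convertase genes differed in opposite directions. Corin, whose protease activates pro-atrial natriuretic peptide, had 11.00 in the infarct pool and 11.32 in the sham pool. The difference was -0.32 (1.25-fold lower), and 18% of all genes compared had a lower difference. The medians of the marker lists for atrial (-0.31) and ventricular (-0.19) cardiomyocytes lay below 0 as well. The part of the cell mixture in the value of Corin was not tested. Furin had 8.43 in the infarct pool and 7.96 in the sham pool, a difference of 0.47 (1.39-fold higher), and 13.6% of genes had a higher one. These differences were, in size, 1.4 and 2.08 times the SD between probe sets for Corin and Furin. Each gene has 1 probe set, and neither reached 2-fold.

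The receptor genes lay below 0. Npr3, the clearance receptor gene, was the lowest member: its brightest probe set had 7.95 in the infarct pool and 8.63 in the sham pool, a difference of -0.68 (1.60-fold lower). Its second probe set had 6.02 in the infarct pool and 6.53 in the sham pool (-0.51). The third had 6.15 in the infarct pool and 6.32 in the sham pool (-0.17), below the median of both arrays. All 3 probe sets were thus lower in the infarct pool, the third by the least, and their mean difference was -0.45. The difference of the brightest was 3.0 times the SD between probe sets, and 4.26% of genes compared had a lower one. Npr2, the receptor of C-type natriuretic peptide, had 9.23 in the infarct pool and 9.64 in the sham pool. The difference of -0.42 (1.34-fold lower) had 12.1% of genes below it. Npr1, the cyclase receptor for the atrial and B-type peptides, was dim: it had 5.43 in the infarct pool and 5.66 in the sham pool, a difference of -0.23 on a probe set below the median of both arrays. Npr2 and Npr3 lay below 0 under every scaling tried, and Npr1 was at 0.08 under spike-in centring.

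Cells that carry these receptors did not share 1 direction in their markers. Npr3 is known from the endocardium, the inner lining of the heart. Of 5 genes listed as endocardial markers, Cytl1 was 2.13-fold lower (difference -1.09), while Plvap (0.85), Smoc1 (0.22) and Vwf (0.19) lay above 0. Nfatc1 was at -0.03 by its brightest probe set, with 5 probe sets from -0.03 to 0.59. How far these genes are particular to the endocardium was not tested. Their summed level was 11.58 in the infarct pool and 11.40 in the sham pool. The 8 endothelial markers had a median of 0.15, led by Pecam1 (0.56), Emcn (0.29) and Flt1 (-0.26), and summed levels of 12.65 in the infarct pool and 12.56 in the sham pool. Under housekeeping centring, both medians lay below 0, at -0.18 (endocardial) and -0.22 (endothelial). Smooth muscle and pericyte markers had a median of -0.13 over 6 genes, from -0.93 (Abcc9) to 0.80 (Tagln), and this median was 0.19 under spike-in centring. Myh11 was at -0.77 (other probe set -0.18). The summed level of these 6 markers is given next. Their summed level was 14.16 in the infarct pool and 14.29 in the sham pool. The 8 fibroblast markers had a median of -0.0 and 4 genes on each side of 0, with Thy1 (1.09), Col1a1 (0.65) and Col1a2 (0.60) the largest in size, and summed levels of 15.33 in the infarct pool and 15.15 in the sham pool. No marker of these lists was dim in both pools. The part of these cells in the receptor values was not tested.

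**Figure D3:**
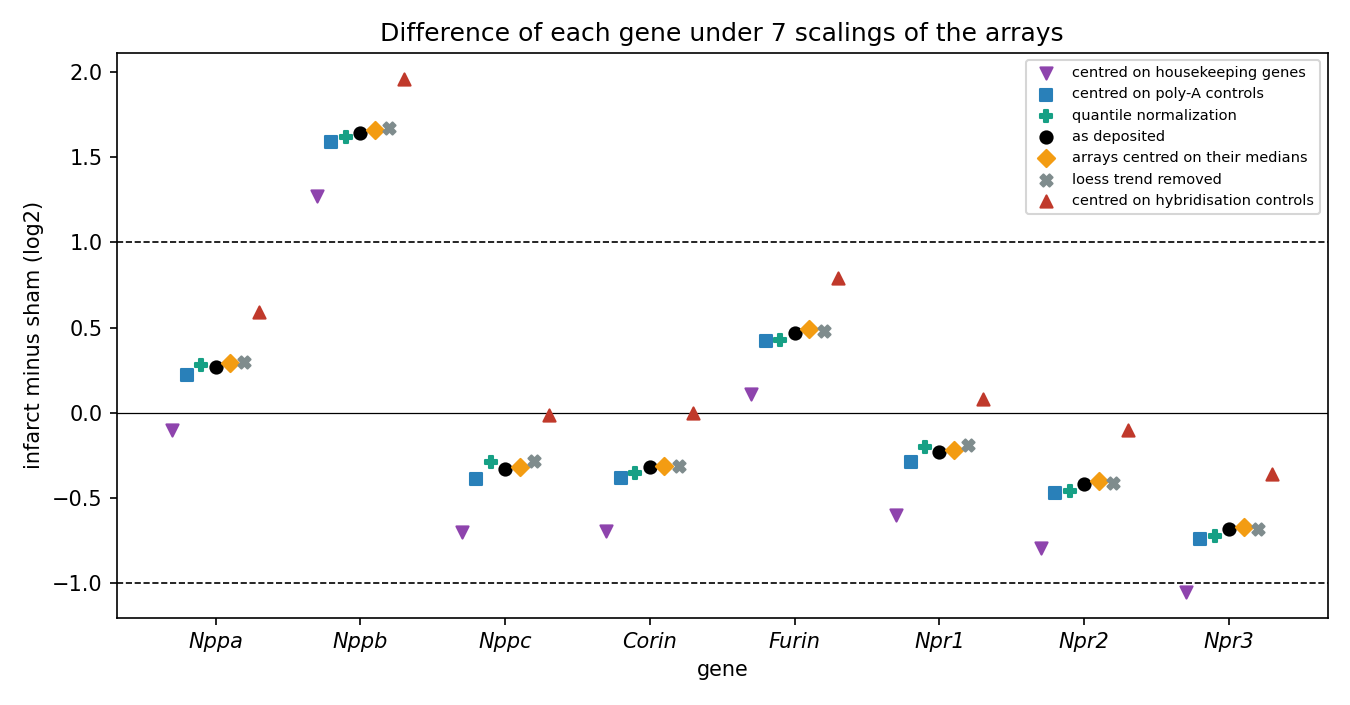
Log2 difference (infarct minus sham) of each of the 8 members under 7 scalings of the arrays, 1 symbol per scaling, with dashed lines at 2-fold. Nppb lay above 2-fold under all 7 (1.27 to 1.96), and Npr3 passed 2-fold lower under housekeeping centring alone (-1.05).

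The position of 0 bears on every small difference. On average, 10 housekeeping genes were 0.37 higher in the infarct pool, from -0.44 (Sdha) to 1.12 (Gusb), whereas 18 hybridisation controls, transcripts added before hybridisation, were 0.32 lower and 24 poly-A controls, added to the RNA, were 0.06 higher. Housekeeping centring moved the median of all genes by -0.37 and gave 199 genes at least 2-fold higher and 638 lower. Spike-in centring moved it by 0.32 and gave 962 higher and 40 lower. Nppb, at 1.27 and 1.96 under these scalings, passed 2-fold under both, whereas Nppa was at -0.10 and 0.59. Furin was at 0.11 and 0.79, Corin at -0.69 and -0.00, Npr2 at -0.79 and -0.10, and Npr3 at -1.05 and -0.36. Centring on the poly-A controls instead moved the median of all genes by -0.06 and changed the sign of no member. With it, Nppa was at 0.22, Corin at -0.38 and Npr1 at -0.29. The medians of the pathway lists below also kept their signs with the poly-A controls. Differences between members do not depend on the centring.

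Regulators, processing enzymes and cyclic GMP genes of the pathway were listed by role. Of 48 listed genes, 44 were bright enough, and 0 were at least 2-fold higher and 1 at least 2-fold lower, beside 3.73% and 1.26% of all genes, shares that in a list of this size come to few genes. Their median was -0.08, and 17 lay above 0. The 1 lower gene was Mme, which encodes neprilysin, a protease that breaks down natriuretic peptides. It had 5.70 in the infarct pool and 7.04 in the sham pool (-1.35, 2.54-fold lower), and its other probe set gave -0.60. In the infarct pool it was dimmer than the array median. Dpp4, a protease that trims B-type natriuretic peptide, was at -0.80, with 4 probe sets from -1.04 to -0.02, and Pcsk6, whose convertase activates corin, was at -0.52. The 8 compared processing and breakdown genes had a median of -0.15, which was 0.17 under spike-in centring. The granule protein genes Chga (-0.43) and Pam (-0.19) were the 2 compared of 3 listed. Their median of -0.31 was 0.01 after that centring.

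The factors and cofactors known to act at the Nppa and Nppb promoters differed by at most 0.53 in size. The 11 transcription factor genes had a median of -0.09, which was 0.23 under spike-in centring. Jun (0.53, other probe set -0.06) and Fos (0.45), which encode the AP-1 factors, and Tbx5 (-0.35) were the largest in size. Of the factors whose letters are marked in the sequences above, Gata4 was at -0.07, Gata6 at -0.27, Nkx2-5 at -0.16 and Tead1 at 0.16, named for those motifs after their values were seen, and each of them changed sign under another scaling. By contrast, the fetal and stress genes of the muscle, which are often induced together with Nppa and Nppb, were higher in part. Myh7, the slow myosin heavy chain gene, had 10.89 in the infarct pool and 9.94 in the sham pool (0.95, 1.93-fold). Ankrd1, a stretch-induced ankyrin repeat gene (0.62), and Acta1, the skeletal α-actin gene (0.61), followed. The adult muscle genes of the list were Myh6 (-0.13, other probe set -0.67) and Atp2a2 (-0.16, with 6 probe sets from -0.82 to -0.16). Both were read by brightest probe sets near the top of the scale, and those probe sets were above 0 under spike-in centring. The median of these 5 genes was 0.61, and none reached 2-fold in the deposited values. Ankrd1 had 14.48 in the infarct pool and 13.87 in the sham pool. The highest value of the infarct array was 14.89, so a larger difference of Ankrd1 had little room. Under spike-in centring, Myh7 was at 1.27 and passed 2-fold.

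Downstream of the receptors, genes for other sources of cyclic GMP had a median of -0.09 over 4 genes, with Gucy1a1, a subunit of soluble guanylyl cyclase (-0.56, with 3 probe sets from -0.56 to -0.22), Nos3, the endothelial nitric oxide synthase gene (0.41), and Gucy1a2 (-0.17). The 7 phosphodiesterase genes had a median of 0.11. Pde1a was at 0.76 but its other probe set at -0.04, Pde3a was at -0.44 (3 probe sets from -0.44 to 0.17) and Pde1c at -0.28 (6 probe sets from -0.40 to 0.01). Of 9 genes for targets of cyclic GMP, 7 were compared, with a median of -0.13. Irag1, listed on the array as Mrvi1 and encoding a substrate of the cyclic GMP-dependent kinase, was at -0.76, Vasp, which encodes an actin regulator, at 0.73, and Rgs2, which encodes a brake on Gq signalling, at -0.45 (4 probe sets from -0.71 to -0.03). Each of these medians changed sign under another scaling: -0.09 was 0.23 and -0.13 was 0.18 under spike-in centring, and 0.11 was -0.26 under housekeeping centring.

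**Figure D4:**
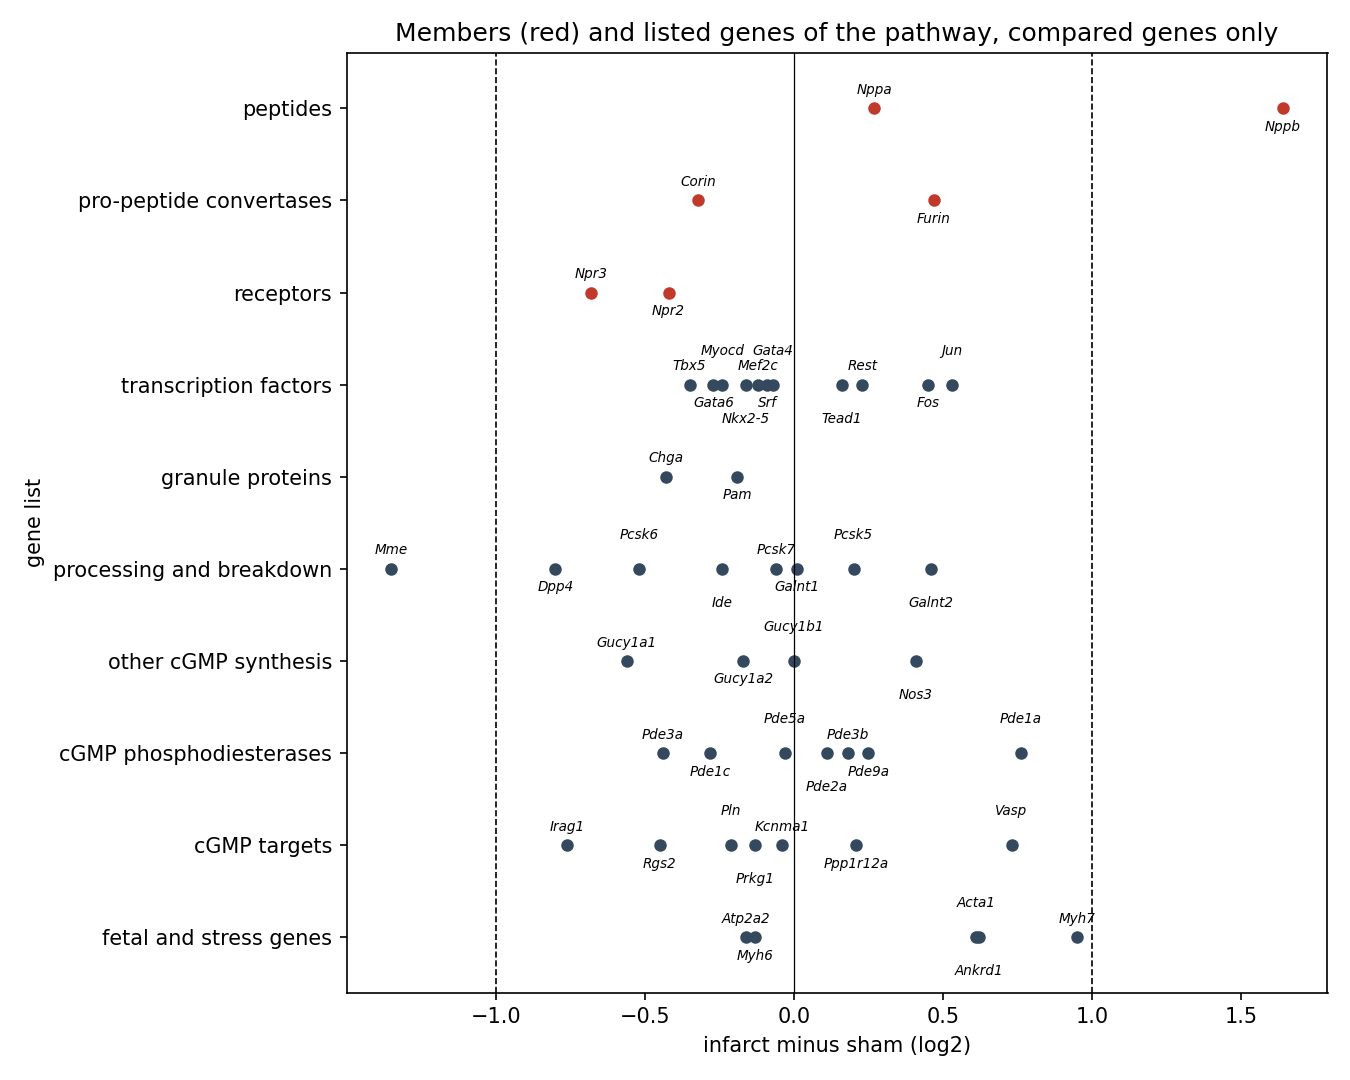
Log2 difference (infarct minus sham) of each compared member (red) and each compared gene of 7 pathway lists (dark), 1 row per list and 1 point per gene, with dashed lines at 2-fold. Nppb (1.64) and Mme (-1.35) were the points beyond the dashed lines.

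Markers of infiltrating cells were higher in the infarct pool. The 7 macrophage markers were all above 0 (6 under housekeeping centring), with a median of 0.57 and Cd68 (1.24), Itgam (1.22) and Ptprc (0.98) highest. Their summed level was 14.19 in the infarct pool and 13.66 in the sham pool. The 3 compared neutrophil markers S100a8 (1.72), S100a9 (1.54) and Csf3r (1.11) had summed levels of 11.05 in the infarct pool and 9.55 in the sham pool, and Mpo was dim in both pools. Of the erythroid markers, Alas2 was at -0.01 and Hba-a1 was dim in both pools. The part of infiltrating cells in the values of Furin, which such cells also express, was not tested.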

How the data were processed

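The authors pooled RNA of 3 hearts per group and ran each pool on 1 GeneChip mouse array. The deposited values are on the log2 scale, made by the authors with RMA, which subtracts background, equalises the distributions of the arrays and combines the probes of each set. For the software and its version, the sources used here give nothing. A change in total mRNA is lost in this normalization, and strong signals may be flattened. Precision is limited by the number of arrays.

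Of 45101 probe sets, 34945 had 1 gene symbol in the platform annotation, 932 several and 9160 none, beside 64 controls. All 10 member probe sets matched RefSeq (GRCm38.p6) by Entrez identifier. For each gene the brightest probe set by mean value was used. Calls used a log2 difference of 1. No test was run, since there were no replicates. The members, 7 pathway lists and 9 marker lists were chosen with earlier results of these data known. The text names every member, of each list the 3 genes with the largest difference in size, and any past 2-fold. Further list genes were named after their values were seen. Listed genes with no probe set of 1 symbol in the table used were left out, among them Ostn, Ly6g and Retnlg.

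Alternatives were array medians, quantile normalization, a loess trend (span 0.4), centring on the housekeeping genes or on either set of controls, the mean over probe sets, leaving out _x_at and _s_at probe sets, no filter, the 75th percentile as filter, and a threshold of 1.4. The procedure was also run on a simulated copy of the arrays in which chosen genes were shifted by more than the cut. That run checked the computation and not the error of the calls in these data. Python 3.11.15 was used with numpy 2.4.6, pandas 2.3.3, statsmodels 0.14.6 and matplotlib 3.10.9.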

Additional observations from a re-analysis of the deposited data

How the results depend on the processing

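The count of 1 member at least 2-fold higher was the same under all 11 alternative settings. Npr3 made the count of lower members 1 after centring on the housekeeping genes. The median of the compared members was -0.39 after that centring, 0.29 after centring on the hybridisation controls and -0.28 with no filter, where Nppc and Npr1 joined. For the pathway genes, the median was -0.45 after centring on the housekeeping genes and 0.24 after centring on the hybridisation controls. Centring on the housekeeping genes gave 3 pathway genes at least 2-fold lower, and centring on the hybridisation controls 3 at least 2-fold higher. Mme was lost (0 lower) with the mean over probe sets, with the filter at the 75th percentile and at a threshold of 1.4. Over all genes, the counts higher and lower were 199 and 638 after centring on the housekeeping genes, 962 and 40 after centring on the hybridisation controls, and 178 and 34 at a threshold of 1.4. Npr3 was at -0.45 as the mean of its probe sets. No paired analysis was possible because each group has 1 array, and no replicate could be left out. The spread between mice is unknown.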
